A study of Papio anubis with 25 samples.

Results

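Hepatic transport of bile acids, sterols, phospholipid and drugs was examined through 8 membrane transporter genes, chosen by symbol, in RNA sequencing libraries of liver, pancreas and salivary glands of the olive baboon (Papio anubis). The genes were the uptake carriers SLC10A1, SLC22A7 and SLCO2B1 and the ATP-driven exporters ABCB11, ABCB4, ABCC2, ABCG5 and ABCG8. All 8 symbols were present in the abundance table, which held 21287 genes. The 8 genes were chosen by name as transporters of the liver, with earlier results of these data known. A high level in liver was therefore anticipated, and their levels are given mainly to describe size, spread and exceptions.

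Hepatocytes take up bile acids, hormones and drugs from blood across the sinusoidal membrane and secrete them across the canalicular membrane into bile. SLC10A1 encodes NTCP, the sodium-coupled bile acid carrier of the sinusoidal membrane, SLC22A7 encodes the organic anion carrier OAT2, and SLCO2B1 encodes OATP2B1, a carrier of steroid sulfates and of several drugs that is also known outside the liver. At the canalicular membrane ABCB11 encodes the bile salt export pump, ABCB4 moves phosphatidylcholine into bile, ABCC2 exports conjugated bilirubin and other conjugates, and ABCG5 and ABCG8 form a heterodimer that exports sterols.

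The samples came from 5 animals, for which the labels name no treatment, each with a flash-frozen piece of liver, pancreas, and left parotid, left submandibular and left sublingual gland, which gave 25 libraries and 5 per tissue. The only male was baboon 5, so sex and that animal cannot be told apart; age was not given in the sources used here. The deposited values were TPM, the length-corrected share of a library's transcripts that a gene accounts for, so levels of different genes can be set side by side. Read depth is not kept in TPM, and no counting interval was computed.

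The liver libraries carried the markers of their label. ALB averaged 29998 TPM there and 286 TPM or less as a mean in each of the other tissues, and all 8 hepatocyte markers (ALB, APOA1, TTR, SERPINA1, FGB, TF, CPS1 and APOB) were higher in liver in all 4 liver comparisons. The 5 pancreatic acinar genes CPA1, CPB1, CELA3B, CTRB2 and CEL were lower in liver than in pancreas, CPA1 by a log2 fold change of -6.91. Of 6 duct genes, EPCAM, SOX9, CFTR and SPP1 were lower in liver than in pancreas, and KRT7 (2.48 and 2.09 TPM) and KRT19 (18.3 and 18.8 TPM) were not called. The livers held markers of other tissue as well: skeletal muscle markers summed to 525 and 584 TPM in baboons 1 and 2 and to between 5.70 and 19.4 TPM in the others, and stratified epithelium keratins to 404 and 225 TPM in baboons 2 and 5 and to between 2.65 and 44.5 TPM in the others. Pancreatic acinar markers summed to between 560 and 1052 TPM in liver and salivary acinar markers (AQP5, BHLHA15, ZG16B, PIP and MUC7) to between 381 and 3014 TPM; the part of such RNA in the transporter values was not tested. Of the 15 gland libraries, 6 were set apart for markers of other tissue. They included the parotids of baboon 2 (adipocyte markers summing to 20189 TPM) and baboon 5 (lymphocyte markers, 737 TPM). The submandibular gland of baboon 5 (adipocyte markers, 6348 TPM) was another. The rest were the sublingual glands of baboons 1 and 4 (stratified epithelium keratins, 76133 and 18202 TPM) and of baboon 2 (skeletal muscle markers, 82104 TPM). The submandibular gland of baboon 2 was not among the 6. Its adipocyte markers nevertheless summed to 2662 TPM and the red cell genes HBB and ALAS2 to 6014 TPM. Its salivary acinar markers summed to 1149 TPM, the lowest value for that gland. The 10 most abundant genes took from 16.2% to 87.7% of a gland library, from 40.3% to 46.7% of a pancreas library and from 23.4% to 35.9% of a liver library, and a TPM value is lowered where a few genes take much of the library.

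Of the 8 transporters, 7 had every liver library above every other library, as did 761 of the 14991 genes tested (5.08%). The exception was SLCO2B1, which was higher than the lowest liver in 3 of 20 other libraries. In liver the mean levels ran from 170.2 TPM for SLC10A1 to 9.74 TPM for ABCB4. Outside liver 6 of the 8 genes had a mean under 2 TPM in every tissue, the exceptions being SLC10A1 and SLCO2B1.

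**Figure D1:**
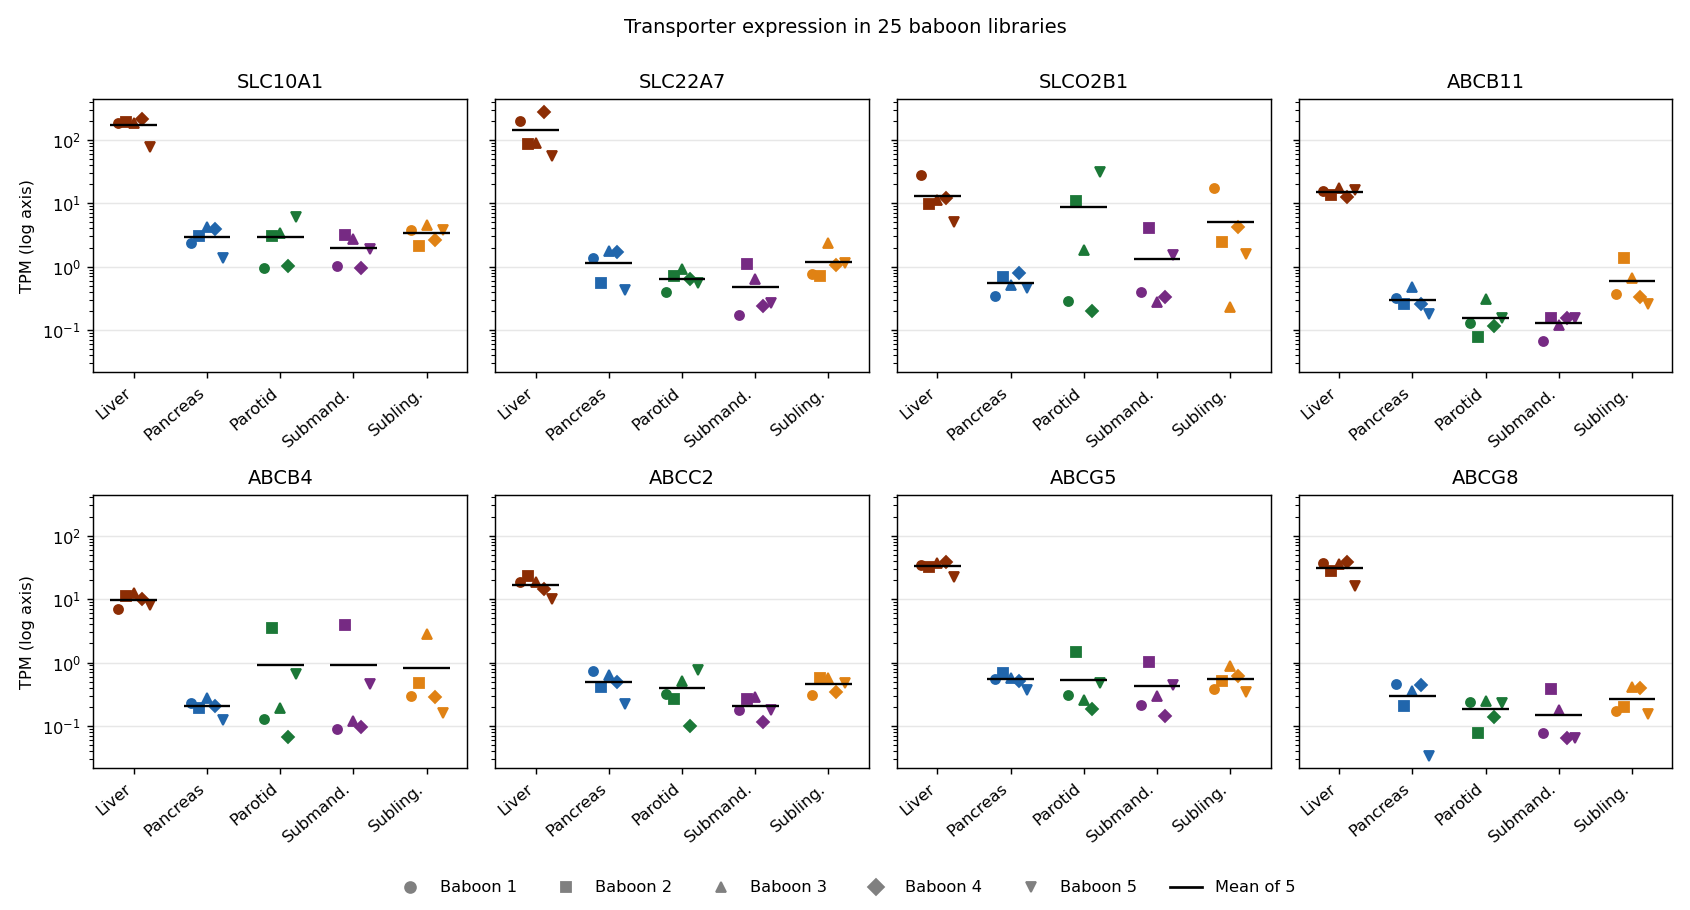
TPM of each transporter (log axis) in every library, by tissue (horizontal axis); marker shape gives the baboon and the black line the mean of 5 animals. The liver points of 7 genes lie above all 20 other libraries, while SLCO2B1 overlaps, with 31.3 TPM in the parotid of baboon 5.

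SLC10A1, the sodium-coupled bile acid carrier, was at 183, 191, 185, 214 and 78.0 TPM in the livers of baboons 1 to 5 (170.2 ± 53.0, SD, n = 5). The liver of baboon 5 was the low sample, and it was still above every library outside liver. Pancreas held 2.98 ± 1.17 TPM, sublingual gland 3.38 ± 0.963, parotid 2.92 ± 2.13 and submandibular gland 1.96 ± 0.997 (each SD, n = 5), and the ranges of these 4 tissues overlapped. The highest library outside liver was the parotid of baboon 5 at 6.15 TPM, and the lowest liver exceeded it 12.7-fold. The log2 fold change of liver over pancreas, on the log2(TPM + 1) scale, was 5.40 (SE 0.40, adjusted p = 1.64e-10 by limma), with the liver higher in 5 of 5 animals.

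SLC22A7, the organic anion carrier, was at 198, 85.7, 89.6, 278 and 54.7 TPM in the livers of baboons 1 to 5 (141 ± 93.8, SD, n = 5). Baboons 4 and 1 were high and baboon 5 was low, a 5.08-fold range within a single tissue. Outside liver its lowest mean was 0.482 TPM, in submandibular gland, and its highest 1.20 TPM, in sublingual gland, and the highest single value was 2.32 TPM in the sublingual gland of baboon 3. Liver and other libraries did not overlap, the lowest liver being 23.5-fold above the highest other library. On this scale SLC22A7 had the largest log2 fold change of the 8 genes in each of the 4 liver comparisons, from 5.81 (SE 0.37) against sublingual gland to 6.37 (SE 0.37) against submandibular gland.

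The liver levels of SLC10A1 and SLC22A7 could not be ordered, since SLC10A1 was the higher in 3 of 5 animals and the ranges overlapped. Both stood above the next gene, ABCG5: SLC22A7 exceeded ABCG5 by 4.27-fold on means, in 5 of 5 animals and with no overlap. Among the 19282 genes with a liver mean above 0, SLC10A1 ranked 573 and SLC22A7 ranked 683.

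SLCO2B1, the third uptake carrier, was at 27.6, 9.55, 11.4, 12.0 and 5.13 TPM in the livers of baboons 1 to 5 (13.1 ± 8.50, SD, n = 5). Baboon 1 was high and baboon 5 low, and the liver mean was far below those of the other uptake carriers. The pancreas values were low and close together, at 0.340, 0.681, 0.514, 0.808 and 0.463 TPM. The parotid values were spread from 0.199 to 31.3 TPM: 0.285, 10.8, 1.83, 0.199 and 31.3 in baboons 1 to 5. In submandibular gland the values were 0.399, 4.02, 0.280, 0.334 and 1.52 TPM, all below the lowest liver. In sublingual gland they were 17.1, 2.44, 0.230, 4.19 and 1.60 TPM, so that 1 library of 5 overlapped the livers.

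The gene rose in liver over pancreas (log2 fold change 3.00, SE 0.73, adjusted p = 0.00417 by limma) and over submandibular gland (2.65, SE 0.73, adjusted p = 0.0122 by limma), each in 5 of 5 animals. The second of these calls was lost without baboon 3 (2.50, adjusted p = 0.0799 by limma) and without baboon 4 (2.50, adjusted p = 0.067 by limma). Against parotid the log2 fold change was 1.50 (SE 0.73, 95% interval -0.013 to 3.01, adjusted p = 0.2 by limma), and the liver was higher in 3 of 5 animals. Against sublingual gland it was 1.63 (SE 0.73, 95% interval 0.12 to 3.14, adjusted p = 0.142 by limma), with the liver higher in 5 of 5 animals. Neither of these passed the test, and both did without a single gland library: 2.30 (adjusted p = 0.0161 by limma) without the parotid of baboon 5, and 2.26 (adjusted p = 0.035 by limma) without the sublingual gland of baboon 1. Each of these libraries held the highest SLCO2B1 value of its gland and was left out after the data were seen. A rise was therefore fixed in advance, and these 2 runs show only how much a single library weighs. Both comparisons also passed after TMM scaling, an adjustment for differing library composition, at 1.59 (adjusted p = 0.0328 by limma) and 1.62 (adjusted p = 0.0295 by limma). Most alternatives left them uncalled, 12 of 17 over parotid and 11 of 16 over sublingual gland. Across the alternatives the log2 fold change fell as low as 0.753 and 1.21, and the adjusted p reached 0.561 and 0.491 by limma.

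ABCB11, the bile salt export pump, had the lowest coefficient of variation of the 8 genes over the 5 livers, with 15.7, 13.6, 17.5, 12.7 and 16.3 TPM in baboons 1 to 5 (15.2 ± 1.94, SD, n = 5). No liver stood apart, and the liver of baboon 5 was the second highest. The means elsewhere were 0.603 TPM in sublingual gland, 0.297 in pancreas, 0.156 in parotid and 0.131 in submandibular gland. The highest of these libraries, 1.37 TPM, was the sublingual gland of baboon 2, the library with skeletal muscle markers, and the lowest liver exceeded it 9.28-fold. The log2 fold change of liver over pancreas was 3.63 (SE 0.23, adjusted p = 1.33e-11 by limma).

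ABCC2, the exporter of bilirubin and drug conjugates, was at 18.4, 23.2, 18.6, 14.3 and 10.1 TPM in the livers of baboons 1 to 5 (16.9 ± 4.92, SD, n = 5). Baboon 2 was highest and baboon 5 lowest. Its means elsewhere lay between 0.206 TPM in submandibular gland and 0.501 TPM in pancreas, and the highest library was the parotid of baboon 5 at 0.773 TPM. The log2 fold change of liver over pancreas was 3.54 (SE 0.25, adjusted p = 7.22e-11 by limma). ABCC2 and ABCB11 overlapped in liver, ABCC2 being higher in 4 of 5 animals.

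ABCG5 and ABCG8, whose proteins work as a pair, were the most abundant of the exporters. ABCG5 was at 35.1, 32.0, 37.5, 38.5 and 22.3 TPM in the livers of baboons 1 to 5 (33.1 ± 6.52, SD, n = 5). ABCG8 was at 36.8, 27.8, 35.9, 37.8 and 16.2 TPM (30.9 ± 9.14, SD, n = 5). For both genes baboon 5 was the low liver and the other livers lay close together. The ratio of ABCG5 to ABCG8 was 0.954, 1.15, 1.04, 1.02 and 1.38 in the 5 livers (1.11 ± 0.167, SD, n = 5), so the pair was near parity in 4 livers and tilted to ABCG5 in the liver of baboon 5.

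Outside liver the ratio was wider, from 1.03 to 18.5, at levels of at most 1.45 TPM for ABCG5 and 0.461 TPM for ABCG8. The widest ratio was in the parotid of baboon 2, where ABCG5 had its highest level outside liver. The 2 genes neighbour each other and overlap in the RefSeq gene table, and whether the library kit kept the strand is not given in the sources used here, so reads from a stretch they share cannot be assigned with certainty. The log2 fold changes of liver over pancreas were 4.44 (SE 0.27, adjusted p = 5.58e-12 by limma) for ABCG5 and 4.57 (SE 0.25, adjusted p = 1.64e-12 by limma) for ABCG8. ABCG8 had the widest gap of the 8 genes between liver and the rest, the lowest liver being 35.1-fold above the highest other library, against 15.3-fold for ABCG5.

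ABCB4, the phosphatidylcholine transporter, had the lowest liver mean, at 6.98, 11.1, 12.3, 10.1 and 8.20 TPM in baboons 1 to 5 (9.74 ± 2.16, SD, n = 5). Baboon 1 was the low liver for this gene, and its range overlapped that of SLCO2B1. Pancreas held 0.206 ± 0.0547 TPM (SD, n = 5). In each gland a single library was high: parotid values were 0.130, 3.56, 0.188, 0.0665 and 0.666 TPM, submandibular values 0.0899, 3.87, 0.119, 0.0970 and 0.465 TPM, and sublingual values 0.291, 0.468, 2.85, 0.288 and 0.160 TPM. The lowest liver was 1.81-fold above the highest of these, the narrowest gap among the 7 genes whose livers did not overlap the rest. The log2 fold change was 3.13 (SE 0.38, adjusted p = 8.04e-07 by limma) against pancreas and between 2.71 and 2.75 (SE 0.38 each) against the glands. ABCB4 lies beside its close paralogue ABCB1 in the gene table, and kallisto divides reads that match both by likelihood, so low ABCB4 values are uncertain.

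All 8 transporters were called higher in liver than in pancreas, where a call needs an adjusted p under 0.05 by limma and a log2 fold change of at least 1 in size; 14.6% of the 14991 tested genes were called higher in liver there. Against submandibular gland 8 of 8 were called higher, with 13.9% of all tested genes. Against parotid 7 of 8 were called higher, with 10.9% of all tested genes, and against sublingual gland 7 of 8, with 9.52%. No transporter was called lower in liver, where 2.86%, 2.84%, 2.61% and 5.93% of tested genes were called lower against pancreas, parotid, submandibular and sublingual gland. The 4 comparisons share the liver libraries, so their results are not independent of each other. In bulk tissue, fewer cells of a type and less RNA per cell cannot be told apart.

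The median log2 fold change of the 8 transporters was 4.04 against pancreas, 4.15 against parotid, 4.22 against submandibular and 4.01 against sublingual gland. The median over all tested genes was 0.44, -0.013, 0.27 and -0.17 in the same order. TMM scaling brought the all-gene median against pancreas to -0.0055. With it, genes higher in liver made up 58.5%, 61.6%, 60.3% and 59.1% of all calls in the 4 comparisons, against 83.7%, 79.4%, 84.2% and 61.6% without it. No transporter changed direction in a liver comparison under any alternative tried. Adding 1 to TPM shrinks the fold changes of genes that lie under 1 TPM outside liver. Over pancreas the highest value among the alternatives was 5.29 for ABCB11, 6.39 for ABCG8 and 5.81 for SLC10A1. The order of the genes by fold change thus depended on the setting.

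**Figure D2:**
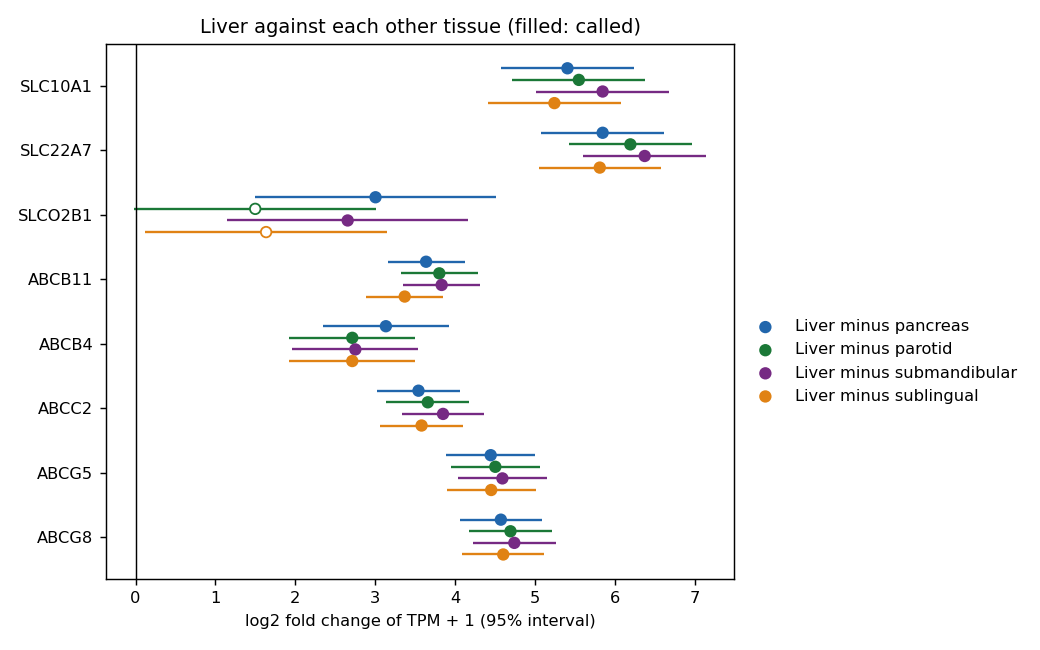
Log2 fold change of TPM + 1 in liver over each other tissue (horizontal axis) for the 8 transporters, with 95% intervals from the model over 25 libraries; filled points were called higher in liver. The 2 open points are SLCO2B1 against parotid (1.50) and against sublingual gland (1.63).

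Between the glands and the pancreas, comparisons that the study names, none of the 8 transporters was called in 24 tests by limma. None had an unadjusted p under 0.05 by limma. For ABCB11, ABCB4, ABCC2, ABCG5 and ABCG8 no call was possible, since each averaged under 1 TPM in pancreas and in every gland. On the log2(TPM + 1) scale such means differ by less than 1, the size a call needs. These genes passed the filter on low values through liver alone, so their lack of a call cannot be set against the background. With 0.1 added to TPM in place of 1, no transporter was called either. The background was 1.41% of tested genes higher in parotid and 2.4% higher in pancreas, 1.27% higher in submandibular gland and 2.81% higher in pancreas, and 6.97% higher in sublingual gland and 2.49% higher in pancreas. The lowest adjusted p by limma was 0.197, for SLCO2B1 in sublingual gland over pancreas (log2 fold change 1.37, SE 0.73, 95% interval -0.14 to 2.88). For the other 7 genes the 95% intervals lay within -1.29 and 1.21 on the log2(TPM + 1) scale, which leaves room for differences of that size. These comparisons share the pancreas libraries. With TMM scaling, genes higher in sublingual gland made up 36.7% of the calls against pancreas, compared with 73.6% without it. ABCB11 was lower in submandibular gland than in pancreas in 5 of 5 animals with no overlap, at means of 0.131 and 0.297 TPM. The log2 fold change was -0.19 (SE 0.23, adjusted p = 0.868 by limma). Adding 1 to values this far under 1 TPM shrinks it, and under the alternatives tried it went as low as -0.76.

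Over the 5 livers, SLC22A7 and SLCO2B1 varied most. The coefficient of variation was 66.4% for SLC22A7, 64.8% for SLCO2B1 and 31.1% for SLC10A1, and between 12.8% (ABCB11) and 29.6% (ABCG8) for the exporters. The median over the 11796 genes with a liver mean of at least 1 TPM was 30.0%. Single livers weigh on these values, as a comparison added after the data were seen showed. Without baboon 5 SLC10A1 was the steadiest of the 8 genes, at 7.41% with a 1.17-fold range, and ABCG5 fell to 8.01% and ABCG8 to 13.3%, beside 14.3% for ABCB11 and a median of 21.4% over all genes. SLC22A7 remained at 57.0% and SLCO2B1 at 55.2% without that liver, while SLCO2B1 stood at 32.6% without baboon 1. The 3 uptake carriers summed to 409, 286, 286, 504 and 138 TPM in baboons 1 to 5, and the 5 exporters to 113, 108, 122, 113 and 73.0 TPM. The ratio of the first sum to the second ran from 1.89 in baboon 5 to 4.45 in baboon 4, a 2.36-fold range. Together the 8 genes made up between 0.0211% and 0.0617% of a liver library.

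The liver of baboon 5 was the lowest of the 5 for 6 of the 8 transporters, all except ABCB11 and ABCB4. Its level was 0.38-fold the median of the other livers for SLC22A7, 0.415-fold for SLC10A1, 0.439-fold for SLCO2B1, 0.445-fold for ABCG8, 0.549-fold for ABCC2 and 0.614-fold for ABCG5, and it was 1.11-fold for ABCB11. Among all 11796 genes the median was 0.833-fold, and the liver of baboon 5 was the lowest in 43.4% of them. The hepatocyte markers showed a like pattern, 7 of 8 being lowest in that liver, with a median of 0.452-fold, ALB at 0.431-fold and APOA1 at 1.59-fold. The 6 cholangiocyte markers (KRT7, KRT19, EPCAM, SOX9, CFTR and SPP1), which mark bile duct cells, summed to 60.2 TPM there and to between 8.25 and 26.2 TPM in the other livers, with KRT19 at 46.9 TPM. The red cell genes HBB and ALAS2 summed to 55.8 TPM there and to between 511 and 777 TPM in the others. The part of these differences in the transporter values was not tested. Without the liver of baboon 5 the same numbers of transporters were called, and SLC10A1 over pancreas was 5.70 (adjusted p = 1.8e-10 by limma).

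**Figure D3:**
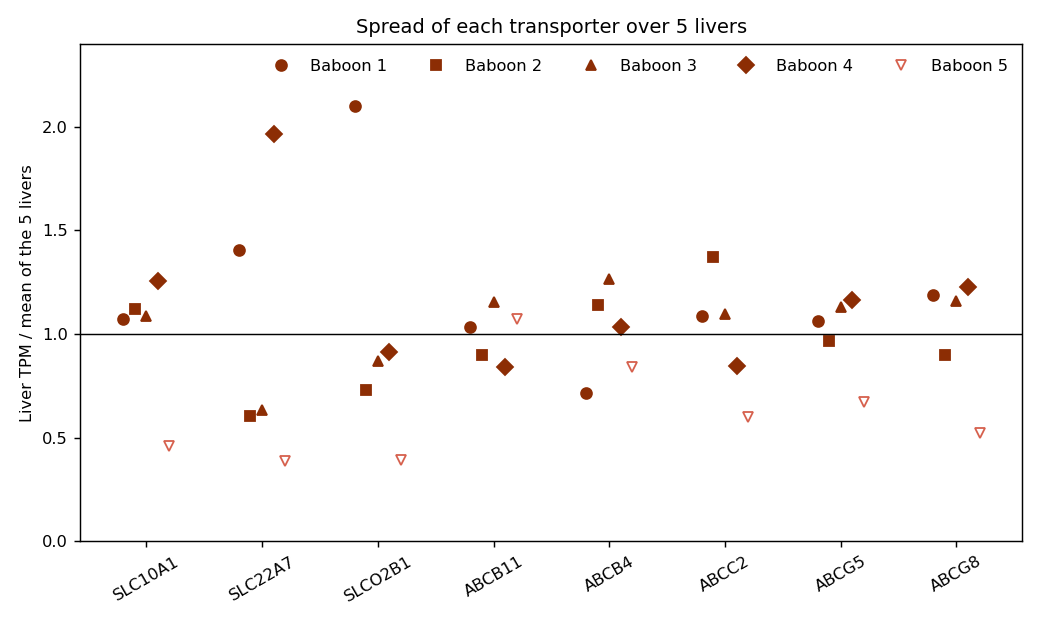
Liver TPM of each transporter divided by its mean over the 5 livers (vertical axis), with 1 point per baboon and open triangles for baboon 5. The points of ABCB11 lie close to the line at 1, those of SLC22A7 and SLCO2B1 are spread widely, and baboon 5 is the lowest point for 6 genes.

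Outside liver, the transporters stood at low percentages of their liver mean, of the same order as the hepatocyte markers. The median over the 8 transporters was 1.86% in pancreas, 1.67% in parotid, 1.19% in the submandibular and 2.34% in the sublingual gland. The 8 hepatocyte markers had medians of 1.18%, 0.606%, 0.507% and 1.03% in the same order. SLC22A7 lay close to the markers, at 0.821%, 0.457%, 0.341% and 0.849%, beside ALB at 0.955%, 0.528%, 0.378% and 0.881%. Whether liver RNA carried into these libraries has a part in such values was not tested.

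SLCO2B1 and ABCB4 were above all 8 hepatocyte markers in each of the 3 glands. SLCO2B1 was at 4.28% of its liver mean in pancreas, 67.6% in parotid, 9.97% in the submandibular and 39.0% in the sublingual gland. ABCB4 was at 2.11%, 9.47%, 9.52% and 8.33% in the same order. The highest marker was TTR at 3.24% in pancreas, CPS1 at 1.56% in parotid, and TF at 1.72% in the submandibular and 4.23% in the sublingual gland. In pancreas ABCB4 thus lay within the range of the markers and below ABCC2 (2.96%), and SLCO2B1 was little above TTR. In parotid ABCC2 (2.32%), SLC10A1 (1.71%) and ABCG5 (1.62%) also exceeded every marker. Single libraries weigh on these means. Taken within each animal, against its own liver, the median over 5 animals was 6.73%, 16.05%, 2.78% and 31.1% for SLCO2B1, and 2.06%, 1.86%, 1.29% and 4.17% for ABCB4, and in the 3 glands the same median for CPS1 was 1.32%, 1.24% and 3.45%, close below ABCB4. A tissue specificity index over the 5 tissue means, from 0 for an even level to 1 for a level in a single tissue, was 0.698 for SLCO2B1 and 0.926 for ABCB4, and between 0.977 and 0.994 for the other 6 genes. The median index of the 14991 tested genes was 0.528, and that of the 3644 genes with their highest mean in liver was 0.586.

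**Figure D4:**
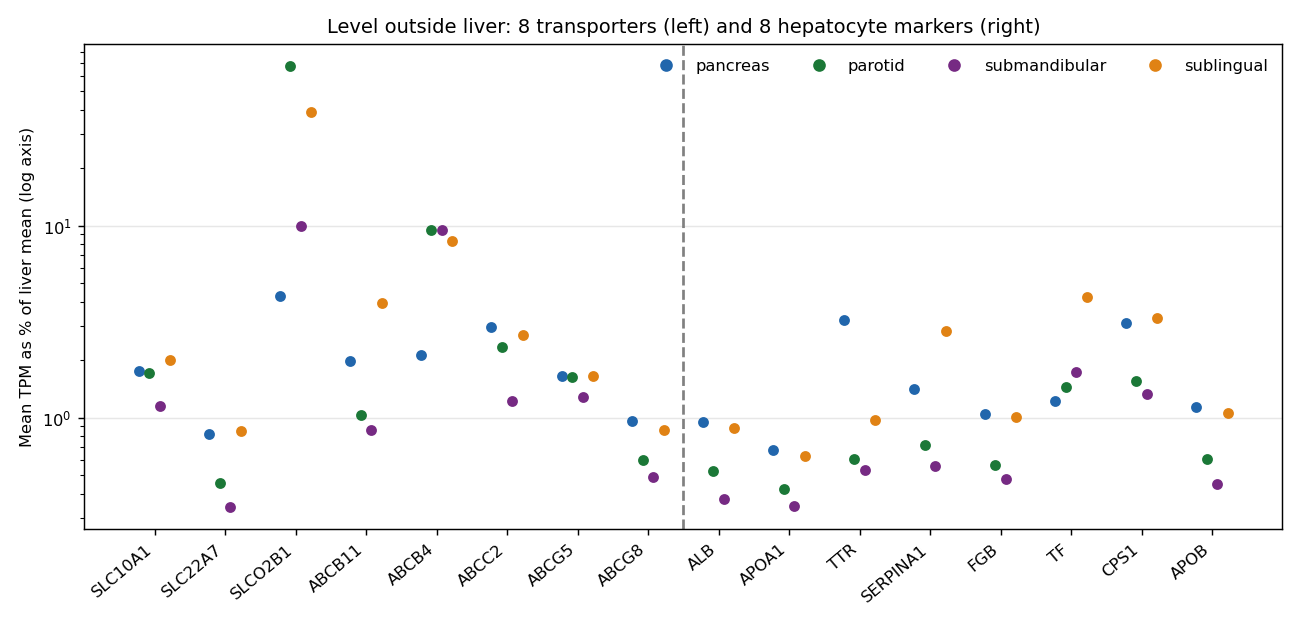
Mean TPM in pancreas and in each gland as a percentage of the liver mean (log axis) for the 8 transporters, left of the dashed line, and 8 hepatocyte markers, right of it. SLCO2B1 in parotid (67.6%) and sublingual gland (39.0%) and ABCB4 in the glands stand above the markers.

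Within the 15 gland libraries, the 3 highest SLCO2B1 values came with a high sum of macrophage markers, though not with every marker high. These 3 highest libraries were the parotid of baboon 5 (31.3 TPM), the sublingual gland of baboon 1 (17.1 TPM) and the parotid of baboon 2 (10.8 TPM). All were among the 6 libraries set apart for markers of other tissue. CSF1R, the receptor that macrophages depend on, was at 27.6, 5.17 and 36.9 TPM in those libraries, where it ranked 2, 4 and 1 of 15. The 6 macrophage markers (CD68, CD163, MARCO, VSIG4, CD14 and CSF1R) summed to 470, 41.8 and 207 TPM there and ranked 1, 4 and 2. In the parotid of baboon 5 most of that sum was MARCO, at 350.4 TPM, while MARCO was 0.0205 TPM in the sublingual gland of baboon 1. High sums were not particular to macrophage markers. In the same 3 libraries, in the same order, the endothelial marker sum ranked 1, 6 and 2 of 15 and the lymphocyte marker sum 1, 4 and 8. The lowest gland library for SLCO2B1, the parotid of baboon 4 at 0.199 TPM, also had the lowest macrophage sum.

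Other libraries did not follow this order. The sublingual gland of baboon 3 had the second lowest SLCO2B1 level, 0.230 TPM, and ranked 6 for the macrophage sum. The sublingual gland of baboon 4 ranked 4 for SLCO2B1 (4.19 TPM) and 11 for CSF1R (0.805 TPM). The sublingual gland of baboon 2 ranked 6 for SLCO2B1 (2.44 TPM) and 11 for the macrophage sum (9.70 TPM). All 6 macrophage markers were above 0 in every library. Their sum ran from 3.98 to 470 TPM in parotid, 9.70 to 41.8 in sublingual gland, 4.66 to 56.2 in submandibular gland and 7.20 to 13.4 in pancreas. In liver it ran from 234 to 656 TPM, most of it CD14 (525.5 TPM on average), which hepatocytes also express. The part of macrophages, endothelium, lymphoid tissue, fat or lining epithelium in the SLCO2B1 values was not tested.

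ABCB4 was highest in the submandibular gland of baboon 2 (3.87 TPM), the parotid of baboon 2 (3.56 TPM) and the sublingual gland of baboon 3 (2.85 TPM). The first 2 were also the highest of the 15 libraries for the endothelial marker PECAM1, at 146 and 187 TPM, whereas the third had 5.57 TPM and ranked 10. By the sum of 5 endothelial markers they ranked 3 and 2 (228 and 272 TPM), behind the parotid of baboon 5 (400.2 TPM, of which CLEC4G was 269.8 TPM), where ABCB4 was 0.666 TPM. These markers (PECAM1, VWF, CDH5, STAB2 and CLEC4G) summed to 2.03 to 400.2 TPM in parotid, 10.03 to 31.8 in sublingual gland, 2.65 to 228 in submandibular gland, 5.00 to 9.50 in pancreas and 13.6 to 26.4 in liver, with 1 value of 0, in pancreas. ABCB1, the neighbouring paralogue, was at 11.9, 4.62 and 3.91 TPM in the 3 libraries and ranked 1, 3 and 4. The sublingual gland of baboon 3 had the highest hepatocyte marker sum of the gland libraries, 1186 TPM. The part of these cells, or of reads shared with ABCB1, in the ABCB4 values was not tested.

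**Figure D5:**
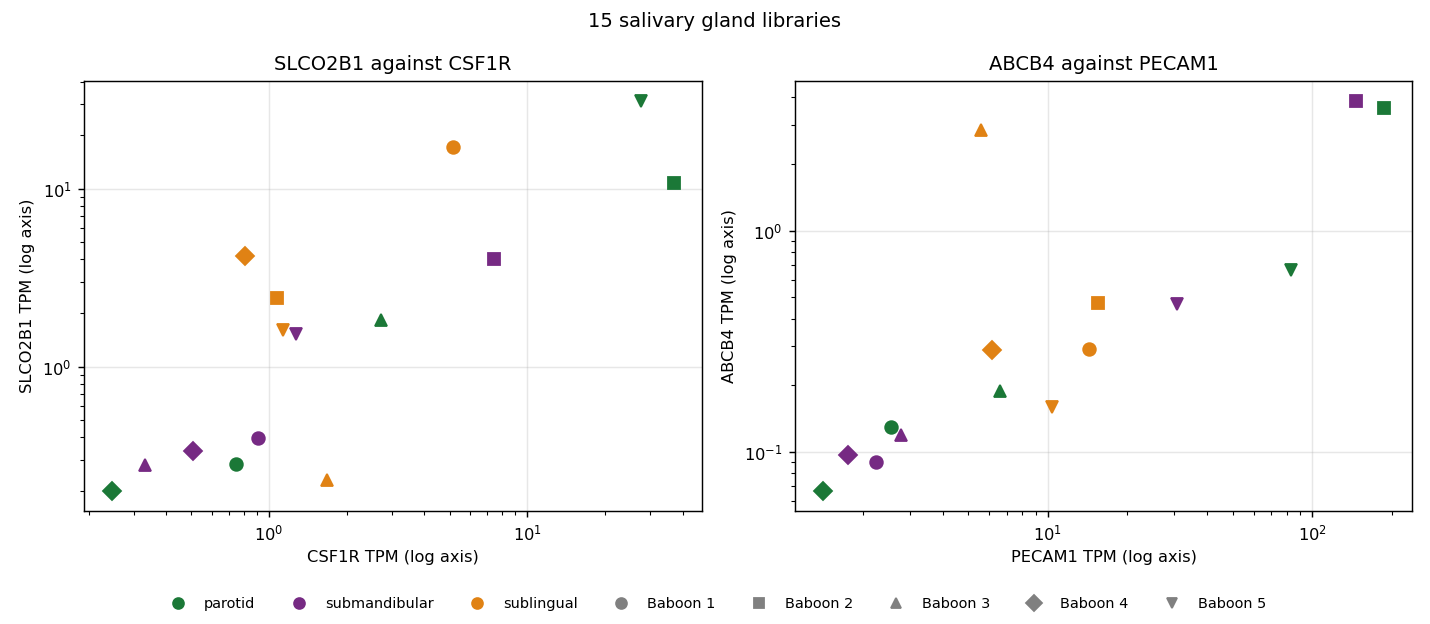
TPM of SLCO2B1 against the macrophage gene CSF1R (left) and of ABCB4 against the endothelial gene PECAM1 (right) in the 15 gland libraries, on log axes; colour gives the gland and marker shape the baboon. The sublingual gland of baboon 3 lies apart from the other points in both panels, low for SLCO2B1 (0.230 TPM) and high for ABCB4 (2.85 TPM).

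Other sinusoidal carriers were called higher in liver in part. The 8 transporters were chosen with earlier results of these data known, so their calls are no standard for this list. Of 12 listed genes 8 were tested, and 5 were called higher in liver than in pancreas, 4 than in parotid, 4 than in submandibular gland and 3 than in sublingual gland. SLCO1B3, an organic anion carrier, was at 46.7 TPM in liver, with a log2 fold change over pancreas of 4.94 (SE 0.28), and ABCC6 was at 38.2 TPM (3.00, SE 0.29). SLC29A1, a nucleoside carrier, was at 32.4 TPM in liver and 21.8 TPM in pancreas and was not called in any liver comparison. SLC22A3, an organic cation carrier, was called lower in liver than in submandibular gland, at 1.73 and 7.22 TPM (-1.58, adjusted p = 0.0232 by limma), and is named after its values were seen.

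Of 8 other genes listed as canalicular, 7 were tested. The membrane at which each acts was not examined, and the list may hold carriers of another membrane. Higher calls in liver numbered 4, 2, 3 and 2 against pancreas, parotid, submandibular and sublingual gland, with none lower. SLC2A9, a urate carrier, was the most abundant gene on that list at 111 TPM in liver. It was not called over pancreas, where it averaged 60.0 TPM (0.99, SE 0.60, adjusted p = 0.301 by limma). SLC47A1, the proton-coupled exporter MATE1, was at 8.51 TPM (2.92, SE 0.39), ABCB1 at 5.07 TPM (2.02, SE 0.57) and ABCG2 at 4.06 TPM (1.89, SE 0.45), and these 3 were called over pancreas. The 5 canalicular exporters ABCB11, ABCB4, ABCC2, ABCG5 and ABCG8 each had a higher liver mean than any of those 3, and a lower one than SLC2A9. ABCB4 (6.98 to 12.3 TPM) and SLC47A1 (2.69 to 15.4 TPM) overlapped over the livers, so these could not be ordered.

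Genes of bile acid synthesis were high in liver as well. Of 15 listed genes 8 were tested; 8 of 8 were called higher in liver than in pancreas, parotid and submandibular gland, and 7 of 8 than in sublingual gland, where AMACR, a racemase of the pathway, missed the test (1.32, adjusted p = 0.0959 by limma). SLC27A5, which joins bile acids to coenzyme A, was at 242 TPM in liver (5.65, SE 0.35, over pancreas), the side-chain oxidase ACOX2 at 152 TPM (4.69, SE 0.40), the reductase AKR1D1 at 125 TPM (5.59, SE 0.38) and the sterol carrier SCP2 at 112 TPM (3.14, SE 0.55). The other 7 listed genes, among them members of the cytochrome P450 family, were not analysed here.

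Among 14 nuclear receptors and other regulators of bile acid and drug handling, all tested, 12 were called higher and 1 lower in liver than in pancreas, and 13 were called higher than in each gland. NR1I3, the drug-sensing receptor CAR, was at 102 TPM in liver (5.84, SE 0.34, over pancreas), NR0B2, the repressor SHP, at 62.4 TPM (2.76, SE 0.33), CEBPA at 50.3 TPM (2.53, SE 0.79) and FGFR4, the receptor of the ileal bile acid signal, at 45.0 TPM (3.16, SE 0.28). NR5A2, a nuclear receptor also known in the exocrine pancreas, was the gene called lower, at 2.98 TPM in liver and 8.97 TPM in pancreas (-1.33, SE 0.34, adjusted p = 0.0066 by limma). KLB, the co-receptor of FGFR4, was not called over pancreas, at 1.28 and 1.14 TPM. Of 5 genes of the ileal bile acid cycle only GPBAR1 passed the filter on low values, and it was not called in any liver comparison; the ileal carrier SLC10A2 was listed at 0 in all 25 libraries.

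Across the 25 libraries, the genes whose log2(TPM + 1) followed each transporter most closely were themselves mostly high in liver. The nearest were RTP3 and C4BPB for ABCB11 (Pearson r of 0.991 and 0.990), F13B and UROC1 for ABCC2 (0.995 and 0.994), TM6SF2 and ACSM1 for ABCG5 (0.995 and 0.994), and SLC17A1 and SULT1E1 for ABCG8 (0.997 and 0.996). For SLC10A1 they were TDO2 and TAT (0.993 and 0.992), and for SLC22A7 UGT2B42 and GNAT1 (0.994 and 0.993). For ABCB4 they were AS3MT and GSTO1 (0.966 and 0.962). These values describe 25 libraries that fall into liver and the rest and share animals, so a gene high in liver alone reaches a high r with any other such gene.

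SLCO2B1 followed another pattern, its nearest genes being KDM2B and MRPL18 at r of 0.926 and 0.923, both with their highest value outside liver above their liver mean (11.1 against 5.34 TPM and 129.7 against 76.4 TPM). Its r with the other 7 transporters lay between 0.565 and 0.662. Among those 7, ABCG8 reached 0.991 with ABCG5 and equally with ABCC2 and SLC22A7.

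The genes lying beside the transporters in the RefSeq table (assembly Panubis1.0) were set beside them, a comparison added after the data were seen. Of 14 neighbouring protein-coding genes that were not transporters of the set, 11 passed the filter on low values, and 2 of these (18.2%, beside 5.08% of all tested genes) had their lowest liver above their highest other library: CROT, a peroxisomal carnitine transferase beside ABCB4 (11.4 TPM in liver, at most 4.75 elsewhere), and SMOC1 beside SLC10A1 (32.0 TPM, at most 6.48). The other 9 did not, and the 3 genes under the filter had a mean below 1 TPM in every tissue. DYNC2LI1, beside ABCG5, averaged 18.1 TPM in liver and 51.3 TPM in pancreas, and SRSF5, beside SLC10A1, averaged 263 and 195 TPM.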

How the data were processed

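The authors deposited TPM per gene for 25 libraries, made with kallisto per the submitters' processing notes, which also name FastQC, MultiQC, cutadapt, HISAT2, SAMtools, featureCounts and DESeq2; versions, index and genome build are not given in the sources used here, and no coordinates are printed. Per the labels, RNA came from 3 sections of 30 µm per sample and reads were paired-end at 150 bp. Libraries were assigned by the column names to tissue and animal, and all 21287 gene symbols matched the RefSeq table. TPM sums to the same total in each library, so a few very abundant genes lower the rest.

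From the deposited TPM, log2(TPM + 1) was fitted with limma 3.58.1 (R 4.3.3; lmFit, contrasts.fit, eBayes with trend) over 25 libraries with tissue and animal as terms, on the 14991 genes that averaged 1 TPM or more in some tissue, which all 8 transporters passed. Benjamini-Hochberg adjustment ran over all tested genes within each of 7 comparisons. Same-numbered libraries came from the same animal. Their deviations from the tissue means had a mean correlation of 0.161, against -0.0354 between animals. The same-animal value was uneven, at 0.362 for liver and pancreas, 0.037 for liver and sublingual gland and -0.046 for sublingual gland and pancreas. TMM factors were computed from the TPM values by the standard formula. The fit was tested on simulated data with 200 changed genes.

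Genes named: all 8 transporters, up to 4 per list by liver mean, list genes called lower in liver than pancreas, the 2 most alike genes per transporter, and cell type markers; 1 listed gene is not reported here. The transporters and lists were chosen with earlier results of these data known. The neighbours, 4 single-library alternatives and the liver spread without each liver were added after seeing the data.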

Additional observations from a re-analysis of the deposited data

Results flagged for a closer look

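In 7 of the 40 gene and tissue groups of 5 animals, 1 library lay far from the other 4, by a gap of more than 0.71 of the whole range; chance marks about 1 in 20 groups of independent, normally distributed values, and these groups share libraries and hold skewed TPM values, so the rate here is not known. ABCB4 was 3.562 TPM in the parotid of baboon 2, where the next library had 0.6657 TPM, 3.865 TPM in the submandibular gland of baboon 2 (next 0.4655) and 2.848 TPM in the sublingual gland of baboon 3 (next 0.4684), so each gland had such a library for this gene. ABCG5 was 1.452 TPM in the parotid of baboon 2 (next 0.4837), the library with the adipocyte markers. SLC22A7 was 2.325 TPM in the sublingual gland of baboon 3 (next 1.134), the gland library with the highest hepatocyte marker sum. SLCO2B1 was 17.12 TPM in the sublingual gland of baboon 1 (next 4.193), the library with the most stratified epithelium keratin. SLC10A1 was 78.04 TPM in the liver of baboon 5, with the next liver at 182.8 TPM, and this was the only low library among the 7.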

How the results depend on the processing

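The number of transporters called in each comparison stayed within 1.5 times the reported number under every alternative run. Of the tests of single transporters in the liver comparisons, 492 kept their side of the threshold and 12 changed it, all of them for SLCO2B1, and none changed sign. Besides those given above, SLCO2B1 passed the test with median-of-ratios scaling (1.63 over parotid, 1.61 over sublingual gland). It also passed without the 6 gland libraries set apart for markers of other tissue (2.86 and 2.62), a run that kept the submandibular gland of baboon 2. That run left out the gland libraries highest for SLCO2B1. Over parotid SLCO2B1 passed without baboon 5 (2.47), whose parotid held its highest value. Over sublingual gland it passed in a fit of those tissues alone (1.63, adjusted p = 0.0338 by limma). Fitting without the replicate block (the animal) changed no call of a transporter: 8, 7, 8 and 7 were called over pancreas, parotid, submandibular and sublingual gland, and 0 between glands and pancreas.

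Between glands and pancreas, 24 values changed sign, none of them called, and 321 kept it. Without the 6 gland libraries these were ABCB4 in parotid (-0.030) and ABCC2, ABCG5 and ABCG8 in sublingual gland (0.14, 0.19 and 0.17). In sublingual gland SLC10A1 and SLC22A7 turned to -0.46 and -0.37 with TMM and -0.44 and -0.36 with median-of-ratios scaling. Leaving out animals or single libraries gave, in parotid, -0.21 to 0.018 for ABCG5 and -0.58 to 0.15 for SLC10A1; in submandibular gland, -0.029 to 0.52 for ABCB4; and in sublingual gland, -0.11 to 0.055 for ABCC2, -0.073 to 0.036 for ABCG5, -0.076 to 0.043 for ABCG8, -0.052 to 0.32 for SLC10A1 and -0.099 to 0.15 for SLC22A7. The cause was not tested.

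The count of all genes called moved more: for liver over pancreas 2623 became 4313 in a fit of those tissues alone and 1722 without baboon 3; over parotid 2064 became 3572 without the 6 gland libraries and 1335 without baboon 3; over submandibular gland 2474 became 1535 to 1599 without baboon 1, 3 or 4; and over sublingual gland 2316 became 1543 without baboon 1. For the glands over pancreas, parotid went from 572 to 1243 (TMM), 1247 (median of ratios) and 315 (without baboon 3), submandibular gland from 611 to 1281, 1301 and 326 to 347 (without baboon 1, 3 or 4), with 980 without the 6 libraries, and sublingual gland from 1419 to between 393 and 3011 without an animal and to 664 without the sublingual library of baboon 1. Depth is unknown from TPM, so no counting error can be given for the low values outside liver.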
